A study of Rattus norvegicus with 15 samples.

Results

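Aminoacyl-tRNA synthetases are the enzymes that attach each amino acid to its transfer RNA. Their genes were taken by symbol, as any single letter followed by "ars" with or without a final 2, together with Eprs, Farsa, Farsb and Qrsl1. The rule found 36 of the 17055 genes in the count tables, and all 36 were followed. Of these, 20 are cytosolic synthetase genes, 15 are mitochondrial synthetase genes ending in 2, and Qrsl1 encodes a subunit of the mitochondrial glutamyl-tRNA amidotransferase, which is not a synthetase and was kept apart. The mitochondrial isoleucine and methionine enzymes, Iars2 and Mars2, were not analysed here.

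The samples were islets of 10-day-old Sprague-Dawley rats, dispersed into cells and transfected with miR-17-5p or with a control microRNA mimic. RNA of both kinds of cell was sequenced in a pair of ways. RISC libraries held RNA recovered with an antibody against Ago2, the Argonaute protein of the RNA-induced silencing complex (RISC), from miR-17-5p cells (4 libraries) and control cells (3 libraries). The mRNA libraries held poly(A) RNA, from miR-17-5p cells (5 libraries) and control cells (3 libraries). Dispersed islets are a mixture of endocrine and other cells, and the number of rats behind a library is not given in the sources used here. Titles number the libraries 1 to 6 and descriptions number them otherwise, so p-values speak of the spread among libraries and cannot tell whether it is biological or technical.

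The cytosolic synthetases supply charged tRNA for translation in the cytoplasm, and 8 of the 20 genes (Eprs, Iars, Lars, Mars, Qars, Rars, Kars and Dars) encode enzymes of the multi-synthetase complex. Mitochondria translate their own messages with a separate set of synthetases made in the cytoplasm and imported. Gars and Kars, the glycine and lysine enzymes, serve both compartments from 1 gene, and mitochondria charge glutamine through Ears2 and the amidotransferase. Many cytosolic synthetase genes are known targets of the transcription factor ATF4 in the amino acid response. MicroRNAs guide Ago2 to messages that pair with their seed, bases 2 to 8. The seed of the transfected microRNA is shown in capitals, since it is shared with the other members of its family in RefSeq's rat entries (GRCr8).
rno-miR-17-5p: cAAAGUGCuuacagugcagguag
rno-miR-20a-5p: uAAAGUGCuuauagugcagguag
rno-miR-93-5p: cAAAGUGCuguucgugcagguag
rno-miR-106b-5p: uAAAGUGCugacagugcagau

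Libraries held 3379456 to 21056240 counts in genes. As a check of the tissue, the insulin genes Ins1 and Ins2 made up between 26.2% and 41.8% of each mRNA library, and the beta cell marker list had no gene at 0 in any group. Control RISC libraries stood apart in how many genes they held. Between 8771 and 10502 genes had over 3 counts in miR-17-5p RISC libraries, against 4895 to 6714 in control RISC libraries and 10515 to 11955 in mRNA libraries of both groups. Levels are given in CPM, counts scaled to library size, with trimmed mean (TMM) factors of all 15 libraries. No transcript lengths were used here, so levels are compared between libraries and never between genes.

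The first comparison asked how mRNA of synthetase genes changed with miR-17-5p. Among the 36 members, all tested, 2 cytosolic genes rose and none fell at an edgeR adjusted p under 0.05. They were Iars, the isoleucine enzyme, and Nars, the asparagine enzyme. Of all 11077 genes tested, 3.11% were called higher and 0.767% lower.

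Iars mRNA measured 164, 174, 130.04, 130.13 and 124 CPM in the miR-17-5p libraries, against 97.1, 84.2 and 80.4 CPM in the control libraries. All 5 miR-17-5p values lay above the highest control value. The log2 fold change was 0.73 ± 0.15 (SE), with an edgeR adjusted p of 0.0148. Nars measured 254, 272, 239.8, 259 and 216 CPM in miR-17-5p mRNA, against 165.4, 164.7 and 199.6 CPM in control mRNA. Again the groups did not overlap, and the lowest miR-17-5p value was close to the highest control value. Its log2 fold change was 0.50 ± 0.13 (edgeR adjusted p = 0.0475). Next by p came Sars, the serine enzyme, at 293, 262, 267, 286 and 255 CPM with miR-17-5p against 201, 181 and 222 CPM in control mRNA, but its adjusted p of 0.0585 missed the threshold in edgeR. It was called, with Iars and Nars, under upper quartile factors, under a filter at a mean of 50 counts and by DESeq2's Wald test.

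The calls changed with the libraries used. When control replicate 2 was left out no member was called, nor when control replicate 3 was, while 93 and 74 genes of the whole table were still higher. Nars alone also lost its call when control replicate 1 was left out, and when any of replicates 2, 4, 5 and 6 of the miR-17-5p libraries was.

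**Figure D1:**
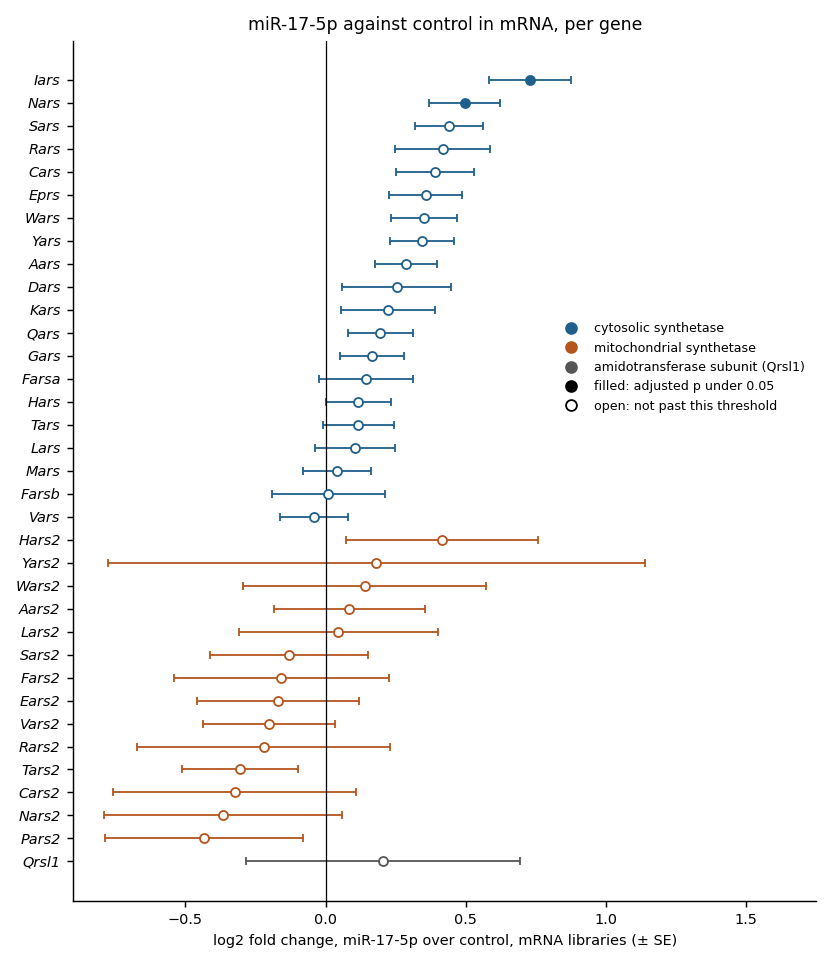
Log2 fold change in mRNA, miR-17-5p over control (x axis, ± SE, 5 against 3 libraries), for the genes (rows), coloured by class; filled points passed an edgeR adjusted p of 0.05. The cytosolic genes lie between -0.04 and 0.73 and the 2 filled points are Iars and Nars, while the mitochondrial genes lie between -0.43 and 0.42 with wider errors.

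The cytosolic genes lay mostly on the higher side. Of the 20, 19 had a log2 fold change above 0, with a median of 0.24, and 9 had an unadjusted p under 0.05. The corresponding values over all genes were 5618 of 11077 above 0, a median of 0.01, and 2100 with an unadjusted p under 0.05. With DESeq2 size factors 18 of the 20 lay above 0. Aars, Cars, Eprs, Iars, Nars, Qars, Sars, Wars and Yars had every miR-17-5p library above every control library. Such separation upwards held for 8.51% of all genes tested and downwards for 6.68%, and for no member downwards. The median was 0.24 over the 8 genes of the multi-synthetase complex and 0.23 over the 12 other cytosolic genes.

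Mitochondrial synthetase genes had a different spread of values. Of the 15, 6 lay above 0 and 9 below, the median log2 fold change was -0.16, and none had an unadjusted p under 0.05 in edgeR or was called by DESeq2. The smallest p among lower values belonged to Tars2, the mitochondrial threonine enzyme, at 28.2, 27.3, 38.5, 29.8 and 27.0 CPM with miR-17-5p against 38.4, 46.7 and 26.0 CPM in control mRNA. These groups overlapped, and the log2 fold change was -0.31 ± 0.21 (edgeR adjusted p = 0.469). Pars2, the proline enzyme, had -0.43 ± 0.35 (adjusted p = 0.556) and Vars2, the valine enzyme, -0.20 ± 0.24 (adjusted p = 0.695). Leaving out miR-17-5p replicate 4 put the mitochondrial median at 0.0029. Qrsl1 had a log2 fold change of 0.20 ± 0.49 (edgeR adjusted p = 0.861). The precision differed between the classes: the median coefficient of variation over libraries was 8.15% in miR-17-5p mRNA and 9.99% in control mRNA for cytosolic genes, and for mitochondrial genes 31.1% in miR-17-5p mRNA and 28.1% in control mRNA. Standard errors of the log2 fold changes ran from 0.11 to 0.20 in cytosolic genes and from 0.21 to 0.96 in mitochondrial genes.

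The promoters of Iars and Nars were read because both genes rose. Promoters, 250 bases before to 50 after the annotated start, came from RefSeq (GRCr8) and were found for 32 of the 36 members. For each member the first promoter listed was read. Its start need not be the outer end of the gene, and distances below are from that start. A pair of motifs was searched on both strands, the ATF4-type element TGATGNAA and the E-box CACGTG, and no match of one overlapped a match of the other. Matches are in capitals. Iars lies at chr17:15193603-15193902 on the minus strand and holds TGATGNAA beginning 24 bases before the start, on the opposite strand of the printed sequence, and an E-box beginning 100 bases before it. Nars lies at chr18:60275733-60276032 on the minus strand and holds TGATGNAA beginning 14 bases before the start.
Iars: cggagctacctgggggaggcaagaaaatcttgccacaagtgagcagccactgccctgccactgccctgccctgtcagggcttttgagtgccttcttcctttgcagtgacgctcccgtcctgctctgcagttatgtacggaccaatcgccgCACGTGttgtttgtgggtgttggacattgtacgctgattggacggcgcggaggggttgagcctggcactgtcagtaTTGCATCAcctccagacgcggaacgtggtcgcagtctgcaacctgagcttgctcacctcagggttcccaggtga
Nars: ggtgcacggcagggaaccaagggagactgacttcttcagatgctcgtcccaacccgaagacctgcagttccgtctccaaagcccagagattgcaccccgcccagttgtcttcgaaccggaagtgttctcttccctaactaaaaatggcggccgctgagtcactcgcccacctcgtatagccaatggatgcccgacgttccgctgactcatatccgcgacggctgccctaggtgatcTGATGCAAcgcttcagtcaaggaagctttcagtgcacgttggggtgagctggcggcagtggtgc

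TGATGNAA occurred in 7 of the 17 cytosolic promoters found (41.2%), in 0 of the 14 mitochondrial ones, and in 3.98% of all 33469 promoters. Shares over all promoters, here and for the E-box, count every promoter listed, while each member enters with its first alone. The other 5 cytosolic genes with it were Aars, Cars, Mars, Tars and Yars. The matches of 4 of them are printed with the bases around them to show how far the letters and their place are alike. Those of Mars and Tars begin 17 and 27 bases before the start, that of Cars 17 bases after it, and that of Yars 38 bases after it.
Mars: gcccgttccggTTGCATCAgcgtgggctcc
Tars: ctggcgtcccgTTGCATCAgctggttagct
Cars: cggcgccgcggTTGCATCAgattctggaaa
Yars: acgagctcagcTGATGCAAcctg

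These windows lie at chr7:65023752-65023781 (Mars, minus strand), chr2:62114811-62114840 (Tars, minus strand), chr1:208225334-208225363 (Cars, minus strand) and chr5:146820190-146820212 (Yars, plus strand). The E-box occurred in 5 of 17 cytosolic and 1 of 14 mitochondrial promoters, against 6.42% of all promoters. Genes with TGATGNAA did not all move alike in mRNA: Mars and Tars had log2 fold changes of 0.04 ± 0.12 and 0.12 ± 0.13, which did not pass the test. A match is a description of letters and not a site.

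Genes around the synthetases gave a mixed picture in mRNA. Among ATF4 and amino acid response genes, 4 of 27 tested rose and none fell by edgeR. The serine and one-carbon enzyme genes Psat1 (1.32 ± 0.26, adjusted p = 0.0135), Phgdh (1.16 ± 0.21, adjusted p = 0.00955) and Shmt2 (0.85 ± 0.18, adjusted p = 0.0186) rose on the log2 scale. The fourth was Mthfd2, of mitochondrial folate metabolism, at 0.56 ± 0.14, which was named after its value was seen. Of the 27, 21 lay above 0, 9 had an unadjusted p under 0.05, and the median was 0.23. The list called elongation factors here also holds the release factor gene Etf1. Of its 9 genes tested 1 rose by edgeR, Eef1b2, a subunit of the exchange factor of the tRNA carrier eEF1A (0.61 ± 0.15, adjusted p = 0.044). In this list 8 of 9 lay above 0, 6 had an unadjusted p under 0.05, and the median log2 fold change of 0.38 was above the 0.24 of the cytosolic synthetases, a difference that was not tested. Of 13 partners of the synthetases and tRNA editing genes, and of 10 mitochondrial translation factors, none was called by edgeR, and 1 and 0 had an unadjusted p under 0.05. Above 0 lay 6 of the 13 and 6 of the 10.

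**Figure D2:**
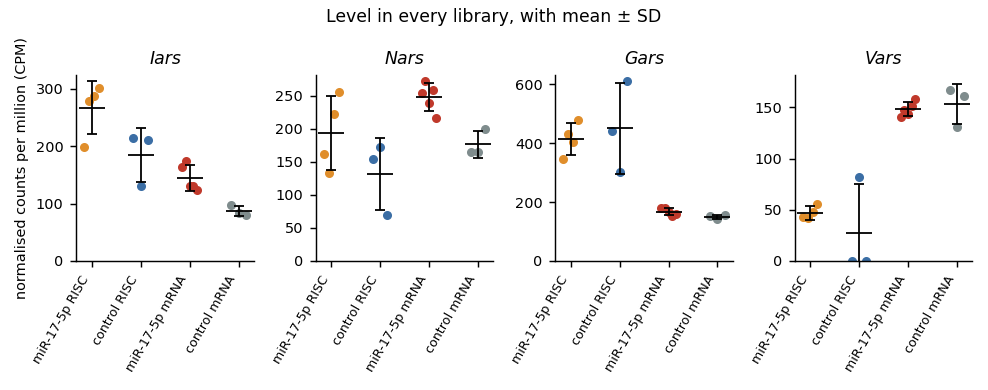
CPM of Iars, Nars, Gars and Vars in every library (points) with mean ± SD (bars), in the order miR-17-5p RISC, control RISC, miR-17-5p mRNA and control mRNA. Iars and Nars are higher in miR-17-5p than in control mRNA with no overlap, Gars is higher in RISC than in mRNA in both kinds of cell, and Vars in control RISC is near 0 in 2 libraries and 82.4 CPM in the third.

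Markers of other cells moved with the same contrast. Of 15 stellate and fibroblast markers tested, 11 rose in mRNA by edgeR, and the summed level of the list was 22527 to 49002 CPM in miR-17-5p mRNA against 11643 to 20722 CPM in control mRNA. Only Col1a2 of these markers was at 0 in all libraries of both groups. Cdh5 and Kdr fell among 11 endothelial markers tested, with sums of 179 to 354 CPM against 196 to 287 CPM, and Hba1, Hba2 and Hbb fell among red blood cell genes, with sums of 11.1 to 25.7 CPM against 37.8 to 170.3 CPM. Of 9 alpha, delta and PP cell markers Ghrl and Pyy fell (sums 12035 to 15372 against 13209 to 20403 CPM). None of 8 beta cell, 13 macrophage and 7 acinar markers was called by edgeR, with 3, 2 and 1 at an unadjusted p under 0.05. The 8 beta cell markers had log2 fold changes below 0, with a median of -0.41 and sums of 298890 to 558240 CPM against 425360 to 503540 CPM. The 13 macrophage markers lay above 0, with a median of 0.84 and sums of 225 to 523 CPM against 91.1 to 377 CPM. Of the 7 acinar markers 6 lay above 0, with a median of 1.03 and sums of 22.0 to 162 CPM against 15.3 to 46.1 CPM. In such bulk samples fewer cells of a type and less RNA per cell cannot be told apart. The part of these markers in the rise of Iars and Nars was not tested.

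In Ago2-bound RNA the same contrast gave no called member. By edgeR 0 of the 33 members tested were called, 9 had an unadjusted p under 0.05, and the Wald test of DESeq2 called 3, among them Aars and Lars2. Of all 9443 genes tested, edgeR called 0.339% higher and 0.0318% lower, and DESeq2 called 12.1% higher and 1.67% lower. Sars2, Yars2 and Qrsl1 did not pass the filter on low counts. Replicates varied more here than in mRNA, with a common coefficient of variation of 1.23 against 0.305.

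Aars, the alanine enzyme, had 326, 328, 312 and 370.3 CPM in miR-17-5p RISC against 101, 228 and 129.6 CPM in control RISC. No value overlapped, and the log2 fold change was 1.14 ± 0.30 with an edgeR adjusted p of 0.0725. Lars2, the mitochondrial leucine enzyme, had 77, 107, 117 and 67 counts in miR-17-5p RISC and 0 in each control RISC library. Taken against a floor of 3 counts per library it was at least 27.3-fold higher, with the same adjusted p of 0.0725. Nars2, Sars2 and Qrsl1 were also at 0 in every control RISC library. In miR-17-5p RISC Nars2 had 84, 0, 48 and 20 counts, Sars2 0, 116, 42 and 0, and Qrsl1 0, 59, 76 and 0. These groups overlapped at 0, so no fold is given. Yars2 had 1, 0, 8 and 1 counts against 0.

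The smallest p among lower values belonged to Farsb, a subunit of the phenylalanine enzyme, with a log2 fold change of -0.56 ± 0.61 (edgeR adjusted p = 0.872). Wars2 and Rars2 followed at -1.14 ± 1.33 and -0.90 ± 1.81. Rars2 had 42, 50, 62 and 76 counts in miR-17-5p RISC against 341, 137 and 0 in control RISC, so the control libraries lay on both sides. Every cytosolic gene passed the filter, 17 of 20 lay above 0, and their median log2 fold change was 0.57, beside 0.27 over all genes. Of 13 mitochondrial genes tested 5 lay above 0, with a median of -0.27, the same with the 3 genes at 0 set to their bounds. Control replicate 2 decided the sign of that median: without it 8 of 14 lay above 0 and the median was 4.56, beside 0.68 over all genes. Complete separation upwards was seen for 7 members, Aars, Cars, Farsa, Lars2, Qars and Tars among them, downwards for none, and over all genes for 17.8% and 3.19%. Leaving out control replicate 2 gave 5 of 35 members called (Aars, Cars, Fars2, Lars2 and Vars), where 11.4% of all genes were called higher. Without that library Fars2 and Lars2 were at 0 in control RISC and Vars was near 0, so these calls add no support. Leaving out miR-17-5p replicate 4 gave 2 of 33, Nars2 among them, where 5.99% of all genes were called higher. That library held the only 0 of Nars2 in miR-17-5p RISC, and its control group was at 0, so this call adds no support either. Stellate and fibroblast markers rose in RISC too, 6 of 15, with sums of 24029 to 26958 CPM against 4504.5 to 9833 CPM, and 1 of 10 macrophage markers rose, with sums of 249 to 344 CPM against 0.159 to 129 CPM. Col1a2 was at 0 in both RISC groups, Aif1 in miR-17-5p RISC, and Cd14, Tyrobp, Fcer1g and Cd74 in control RISC. The part of these markers was not tested. Among partner and editing genes, elongation factors, mitochondrial translation factors and ATF4 and amino acid response genes, none of 12, 9, 8 and 27 tested was called by edgeR, and 3, 4, 1 and 7 had an unadjusted p under 0.05.

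**Figure D3:**
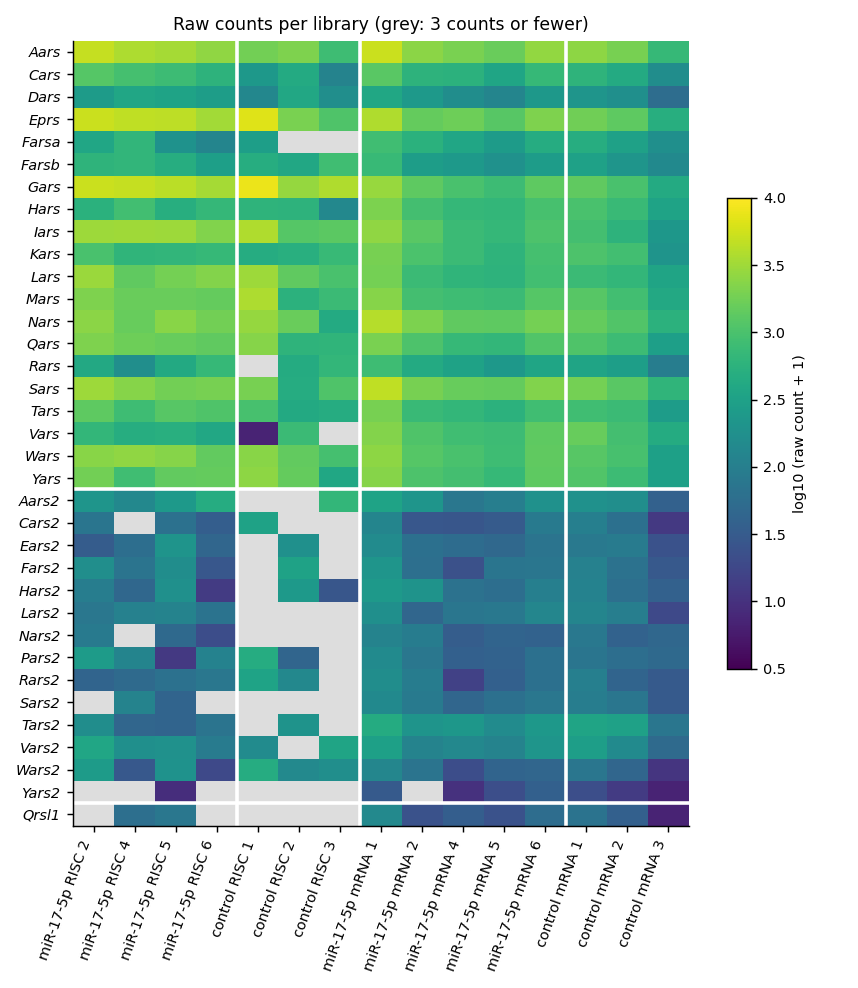
Raw counts on a log10 scale (colour) for the genes (rows) in each library (columns); grey marks 3 counts or fewer, white lines part the groups and the classes. Grey cells gather in the mitochondrial rows of the 3 control RISC libraries, where 4, 5 or 7 of the 15 mitochondrial genes had over 3 counts.

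Fewer of the mitochondrial genes than of the cytosolic genes were seen in control RISC. Over 3 counts were found for 12 to 15 of the 15 mitochondrial genes in miR-17-5p RISC libraries, for 4 to 7 in control RISC libraries and for 14 or 15 in mRNA libraries. Cytosolic genes over 3 counts numbered 20 in each miR-17-5p RISC library and 18 or 19 in control RISC libraries. Genes of the whole table were set beside them by their level in control mRNA. Among the 4052 genes at 5 to 25 CPM, the band of 13 mitochondrial genes, 7.45% to 25.8% were at 3 counts or fewer in miR-17-5p RISC libraries and 49.8% to 67.6% in control RISC libraries. This band also holds 1 cytosolic gene. Of its members 8, 7 and 9 were at 3 counts or fewer in control RISC replicates 1, 2 and 3. Members of this level were thus missed in control RISC about as often as all genes of that level. At 100 to 1000 CPM, the band of 13 cytosolic genes, these shares were 0.231% to 1.23% and 7.23% to 14.9%.

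The difference between the effects of miR-17-5p in RISC and in mRNA was tested over all 15 libraries. By edgeR 3 members were called higher, Lars2 (adjusted p = 3.02e-04) and Nars2 (adjusted p = 0.0158) among them, and no member lower, where 13% of all 11418 genes were called higher and 0.394% lower. All 3 had 0 counts in every control RISC library. With a replicate block no member was called, where 0.263% of all genes were called higher. In mRNA Lars2 and Nars2 had log2 fold changes of 0.04 ± 0.36 and -0.37 ± 0.43. No cytosolic gene was called by edgeR, and 3 had an unadjusted p under 0.05. The members nearest to being lower were Wars2 (-1.32 ± 1.13, adjusted p = 0.614), Gars (-0.28 ± 0.27, adjusted p = 0.693) and Farsb (-0.56 ± 0.65, adjusted p = 0.765). The count of higher members was 7, 9 and 5 of 36 without control replicate 1, 2 and 3, and 5 without miR-17-5p replicate 2. Of all genes 16.5%, 20.7%, 14.6% and 11.7% were called higher in these fits. Lars2 and Nars2 were called in each of these. Their control RISC group stays at 0 counts whichever replicate is left out, so the repeated calls add no support. Without control replicate 2 the control RISC group of Ears2 and Fars2, then called too, was also at 0.

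RISC was then set against mRNA within each kind of cell, which asks which synthetase messages Ago2 recovered beyond or below their share of poly(A) RNA. The RISC protocol in the labels names no poly(A) selection, and the ribosomal precursor Rn45s took 23.6% to 42.6% of RISC counts and 3.13% to 12.8% of mRNA counts, so the values are shares of differently made libraries. In miR-17-5p cells 6 of 36 members were higher in RISC and 4 lower by edgeR, against 21.7% and 21.8% of all 10871 genes. The median of all genes was -0.15 and moved to -0.26 with DESeq2 size factors.

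Gars, the glycine enzyme, had the smallest p. It measured 348, 429.8, 404 and 479.6 CPM in miR-17-5p RISC against 179.7, 180.4, 168, 152 and 159 CPM in miR-17-5p mRNA, a log2 fold change of 1.47 ± 0.13 (edgeR adjusted p = 4.57e-06). In control cells it measured 440.2, 301 and 610.2 CPM in RISC against 152, 142 and 157 CPM in mRNA, a log2 fold change of 1.59 ± 0.29 (adjusted p = 0.0118). RISC lay above mRNA in every library of both kinds of cell. Iars was the other gene called in both, at 198, 279, 287 and 302 CPM in RISC against 124 to 174 CPM in mRNA of miR-17-5p cells (1.05 ± 0.16, adjusted p = 3.21e-04), and at 214, 131 and 209.8 CPM against 80.4 to 97.1 CPM in control cells (1.09 ± 0.27, adjusted p = 0.029). In control cells the Iars call was lost in 5 of 10 alternatives, with adjusted p of 0.0501 to 0.166: DESeq2 size factors, a mean of at least 50 counts, the replicate block, and without replicate 1 or replicate 3. The comparisons in the 2 kinds of cell share no library. The difference between them had an edgeR adjusted p of 0.693 for Gars and 0.854 for Iars.

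Of the 6 genes higher in RISC of miR-17-5p cells, 4 encode complex members. Besides Iars these were Lars, the leucine enzyme (1.06 ± 0.22, adjusted p = 0.00213), Eprs, which charges both glutamate and proline (0.91 ± 0.14, adjusted p = 3.27e-04), and Qars, the glutamine enzyme (0.45 ± 0.14, adjusted p = 0.0173). Thus 4 of 8 complex genes were higher and 1 lower, against 2 and 2 of the 12 genes outside it. That difference was not tested. Eprs had 346, 401, 415 and 465 CPM in RISC against 200.1 to 287 CPM in mRNA, with no overlap. Wars, the tryptophan enzyme, was higher by 0.46 ± 0.14 (adjusted p = 0.0157). With DESeq2 size factors Wars and Qars were no longer called, and both lost their calls without replicate 5, as did Wars without replicate 4 and Qars without replicate 6.

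On the lower side stood Vars, the valine enzyme. It had 42.6, 41.6, 47.4 and 55.9 CPM in RISC against 141, 148, 143, 152 and 158 CPM in mRNA of miR-17-5p cells, a log2 fold change of -1.50 ± 0.14 (edgeR adjusted p = 9.51e-06). In control cells Vars had 6, 764 and 1 counts in RISC, and its log2 fold change of -2.46 ± 2.08 did not pass the test. Hars, the histidine enzyme (-0.77 ± 0.24, adjusted p = 0.0211), and Kars (-0.66 ± 0.18, adjusted p = 0.0118) were lower in RISC of miR-17-5p cells, but neither was called without replicate 2 or without replicate 5, nor Kars without replicate 4. Tars2 was the 1 mitochondrial gene called, at 10.7, 3.87, 3.83 and 9.66 CPM in RISC against 27.0 to 38.5 CPM in mRNA (-1.94 ± 0.39, adjusted p = 0.00192). The median log2 fold change was 0.18 over cytosolic genes and -0.28 over mitochondrial genes, and with DESeq2 size factors 0.06 and -0.40.

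**Figure D4:**
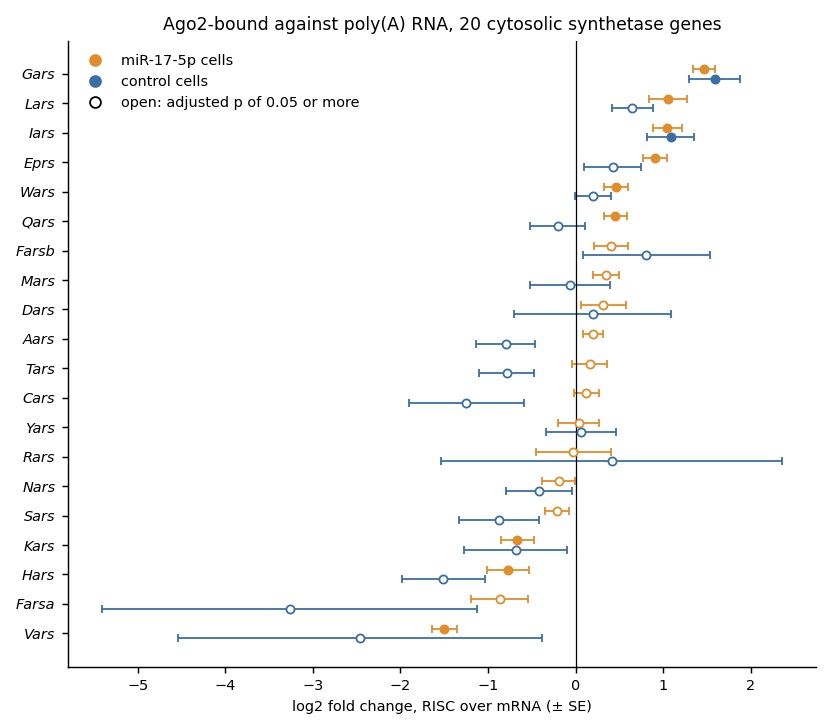
Log2 fold change of RISC over mRNA (x axis, ± SE) for the 20 cytosolic genes (rows), in miR-17-5p cells (orange, 4 against 5 libraries) above control cells (blue, 3 against 3 libraries); filled points passed an edgeR adjusted p of 0.05. Gars and Iars are filled in both kinds of cell, and the errors are wider in control cells.

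In control cells the called members were Gars and Iars, higher, and 6 genes lower, against 5.96% and 22.3% of all 10170 genes. Those 6, with Yars2, Sars2, Qrsl1, Lars2 and Nars2 among them, had 0 counts in all 3 control RISC libraries. Against the floor of 3 counts per library Yars2 was at least 6.36-fold, Sars2 32.9-fold, Qrsl1 15.1-fold, Lars2 34.9-fold and Nars2 31.2-fold lower than in control mRNA. They passed the filter through their mRNA counts alone, so their calls add no support, and at a mean of at least 50 counts no member was called lower. The median log2 fold change was -0.14 over cytosolic genes, -0.36 over mitochondrial genes and -0.69 over all genes. With DESeq2 size factors these were -0.33, -0.62 and -0.87. Single libraries decided the mitochondrial median: it was -0.97, -7.36 and -1.99 without replicate 1, 2 and 3, beside -0.83, -1.04 and -0.77 over all genes, and so below the median of all genes each time. Leaving out replicate 1 removed all calls, over all genes too. Without replicate 2 the lower members were 11 of 36, against 28% of all genes. Among them were Ears2 and Fars2, which without it were at 0 in control RISC, so these calls add no support either. Without replicate 3 Gars alone was higher.

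The other genes of charging and elongation were compared between library types in miR-17-5p cells as well. Of 9 genes in the elongation factor list 6 were lower and 0 higher by edgeR, led by Eif5a (-3.37 ± 0.16), Eef1b2 (-2.44 ± 0.19) and Eef1d (-2.92 ± 0.29). Of 13 partner and editing genes 5 were lower, among them Aimp1, a scaffold of the multi-synthetase complex (-2.59 ± 0.40), and Gatc, a subunit of the amidotransferase (-2.86 ± 0.69), while Xpot, the tRNA exporter, was higher (1.80 ± 0.17). Of 27 ATF4 and amino acid response genes 9 were higher, led by Chac1 (2.65 ± 0.16) and the amino acid transporters Slc7a1 (1.36 ± 0.12) and Slc38a2 (1.38 ± 0.14), and 7 were lower. Of 10 mitochondrial translation factors 3 were higher, with Lrpprc, a regulator of mitochondrial RNA, first by p (1.11 ± 0.22), and 1 was lower. In control cells 1 of 13 partner and editing genes was higher and 4 lower, 0 and 4 of 9 elongation factors, 0 and 1 of 9 mitochondrial factors, and 2 and 4 of 27 ATF4 and amino acid response genes.

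**Figure D5:**
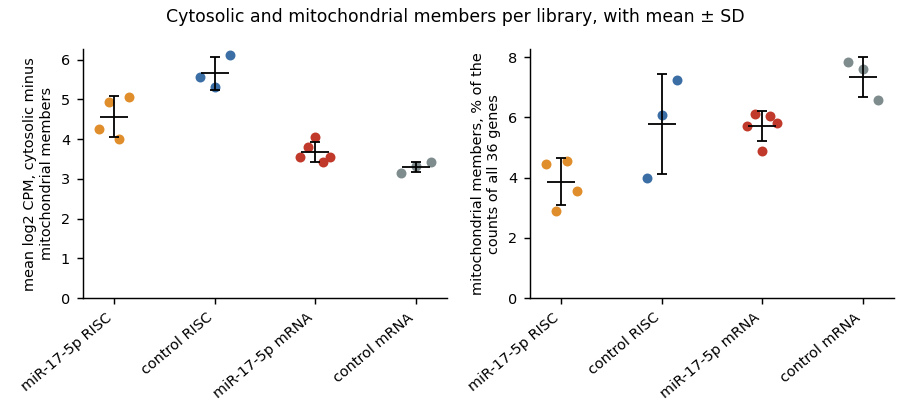
Left, mean log2 CPM of the 20 cytosolic genes minus that of the 15 mitochondrial genes in each library; right, the mitochondrial genes' share (%) of the counts of all 36 genes, each with mean ± SD per group. The difference averages 3.68 in miR-17-5p mRNA and 3.30 in control mRNA, and the share 5.72% and 7.34%.

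The balance of the classes was followed per library. The mean log2 CPM of cytosolic minus mitochondrial genes was 3.68 ± 0.25 in miR-17-5p mRNA (SD, n = 5) and 3.30 ± 0.13 in control mRNA (SD, n = 3). Every miR-17-5p value, 3.43 to 4.05, was above the control values of 3.16 to 3.41, narrowly. The mitochondrial genes took 5.72 ± 0.50% of the counts of the 36 genes in miR-17-5p mRNA and 7.34 ± 0.66% in control mRNA, without overlap. In RISC the mean difference was 4.57 ± 0.51 with miR-17-5p (SD, n = 4) and 5.66 ± 0.41 in control cells (SD, n = 3), where the control values contain the genes at 0 counts. Over the members with at least 10 counts in every library, 17 cytosolic genes and Wars2, these means were 4.33 and 2.06, so the order of the groups turned. The mitochondrial side is then Wars2 alone, at a mean of 9.98 CPM in miR-17-5p RISC and 22.5 CPM in control RISC. The turn therefore says nothing of the class. The mitochondrial share in RISC was 3.87 ± 0.78% with miR-17-5p and 5.77 ± 1.66% in control cells. It was lower on average with miR-17-5p, but with overlap (2.91% to 4.55% against 3.98% to 7.25%). The control share rests partly on genes seen in a single library. In control RISC replicate 3, which had the 7.25%, Aars2 gave 656 of the 1195 mitochondrial counts, and it was at 0 in replicates 1 and 2. Together the 36 genes took 0.365 ± 0.015% of counts in miR-17-5p RISC, 0.321 ± 0.077% in control RISC, 0.264 ± 0.022% in miR-17-5p mRNA and 0.216 ± 0.013% in control mRNA (SD). No p is given for these scores, since the genes were chosen with results known.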

How the data were processed

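Raw counts per gene, 1 table per library, were deposited by the authors: per the submitters' processing notes they used TopHat2 2.0.10 with Bowtie2 on rat build rn5, then HTSeq, and for Bowtie2 and HTSeq the version is not given in the sources used here. Per the labels' protocols reads were single-end from libraries that do not keep strand, so reads of antisense or overlapping genes cannot be separated, and reads of similar genes such as Hars and Hars2 may be split. The counter's summary lines entered no total or test (non-unique alignments 15.0% to 31.2%, ambiguous reads 0.151% to 0.454%). Groups came from the titles. No 2 libraries of a group were identical.

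The test was edgeR 4.0.16 in R 4.3.3 (TMM factors, filterByExpr, robust quasi-likelihood F-test, two-sided), adjusted by Benjamini-Hochberg over all genes tested and called under 0.05. Adjusted p-values are from this test unless DESeq2 1.42.0 (Wald test) is named. Where a group is at 0, folds use a floor of 3 counts per library, which covers counting error only. Log2 CPM used a prior count of 2. The difference of effects and both comparisons of RISC with mRNA assume 1 spread per gene over both library types. The procedure was tested on simulated data.

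Named members were those called, or else the 3 with the smallest p per direction. Of other lists, up to 3 called genes were named. Sars, Mars, Tars, Qrsl1 and examples of groups at 0 or of separated groups were named after their values were seen. Members and lists were chosen with earlier results of these data known. Alternatives were other size factors, other filters, DESeq2, totals without Ins1, Ins2 and Rn45s, a replicate block and each replicate left out. 1 member and 1 promoter window are counted but not reported here. The planned reading of protein sequences was not made here.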

Additional observations from a re-analysis of the deposited data

Results flagged for a closer look

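Within groups of 4 or 5 libraries, 5 of 72 combinations of gene and group had 1 library far from the others by the Dixon criterion, and chance gives about 1 in 20. In miR-17-5p mRNA replicate 2, Hars2 had 26.7 CPM against 10.96 to 14.98 CPM in the other 4 libraries, and Mars had 119.8 CPM against 141 to 147 CPM. In miR-17-5p mRNA replicate 4, Tars2 had 38.5 CPM against 27.0 to 29.8 CPM. In miR-17-5p RISC replicate 6, Mars had 206 CPM against 138 to 146 CPM and Qars 198 CPM against 139 to 146 CPM. The test of the difference between the effects of miR-17-5p in RISC and in mRNA called Lars2 and Nars2, with edgeR adjusted p of 3.02e-04 and 0.0158 (2.5e-09 to 0.0908 and 2.64e-04 to 0.333 over the alternatives, highest with a replicate block, which ended both calls). Both had 0 counts in the 3 control RISC libraries, where 49.8% to 67.6% of the genes at 5 to 25 CPM in control mRNA were at 3 counts or fewer. The 3 called of 36 members stand beside 13% of all genes.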

How the results depend on the processing

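In mRNA the 2 members called higher were 1 with DESeq2 size factors and 1 without Ins1, Ins2 and Rn45s in the totals, 3 (Sars added) with upper quartile factors, a mean of at least 50 counts or the DESeq2 Wald test, and 0 to 2 with each replicate left out. The share of all genes called higher was 3.11% in the main fit. In these alternatives it was 2.92% and 2.86%, then 3.26%, 4.51% and 5.58%, and 0.653% to 4.94%. In RISC the count of 0 was 3 with the DESeq2 Wald test (12.1% of all genes higher) and 0 to 5 with replicates left out (0% to 11.4%). The difference of effects gave 3 members higher, 5 with the DESeq2 Wald test and 3 to 9 with replicates left out. Of all genes 13%, 17.1% and 10% to 20.7% were called higher in these fits. In miR-17-5p cells 4 members were lower in RISC (21.8% of all genes), and 2 to 4 with replicates left out (18.1% to 22.4%). In control cells 2 members were higher in RISC, 1 with DESeq2 size factors, 1 at a mean of at least 50 counts and 0 to 2 with replicates left out. Of all genes 5.96%, 4.65%, 5.4% and 0% to 4.63% were higher in these fits. In control cells 6 members were lower, 0 at a mean of at least 50 counts and 0 to 11 with replicates left out, beside 22.3%, 9.74% and 0% to 28% of all genes. With replicates left out in turn, log2 fold changes reached the other sign for Vars2 (-0.35 to 0.067) and Pars2 (-0.64 to 0.017) in mRNA, Farsb in RISC (-0.9998 to 0.39), and Gars (-0.37 to 0.13) and Farsb (-0.66 to 0.32) in the difference, for Vars2 without control replicate 1 and for the others without control replicate 3. The causes were not tested.

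Same-numbered libraries were not seen to deviate together (correlations of -0.18 to 0.05). Of 4 pairs in miR-17-5p cells 1 correlated best with its own number, and of 3 in control cells 1 did. With so few libraries per group this cannot exclude pairing, and the numbers are used here only to name libraries. With a replicate block, 0 members were called in mRNA (0 of all genes) and 0 in the difference (0.263% of all genes higher). The mRNA groups share only 2 numbers, so that fit had almost nothing left to measure spread, and its 0 calls say little. Between library types in miR-17-5p cells 4 members were higher and 5 lower, beside 16.4% and 17.1% of all genes. In control cells 1 was higher and 0 lower, beside 1.68% and 1.64% of all genes. Pars2 in mRNA had 0.28 with this block. For miR-17-5p against control RISC no fit with a block was made, because these groups share only 1 number.

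The difference of cytosolic and mitochondrial means was 4.29 in miR-17-5p mRNA, 4.17 in control mRNA and 2.06 in control RISC over members with at least 10 counts in every library, and 6.80 in control RISC with a prior count of 0.5. With that minimum of 10 counts Wars2 alone stood for the mitochondrial genes. Without Gars and Kars the mitochondrial share was 6.33% in miR-17-5p mRNA and 8.17% in control mRNA. Of 433 values of named members under alternatives, 373 had the same call, 48 were no longer called, 6 were newly called and 6 had the other sign. Counts near 0 in control RISC limit what can be said of mitochondrial members there.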
